A study of Arabidopsis thaliana with 6 samples.

Results

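Trehalose-phosphate phosphatases (TPPs) remove the phosphate from trehalose 6-phosphate to give trehalose. Arabidopsis thaliana has 10 genes for them, TPPA to TPPJ, and these were selected by their locus identifiers. Of the 10, 4 were present in the expression table, among 17675 genes: TPPA (AT5G51460), TPPD (AT1G35910), TPPI (AT5G10100) and TPPJ (AT5G65140). TPPB, TPPC, TPPE, TPPF, TPPG and TPPH were not in the table used here and were not analysed. The RNA came from inflorescences cut down to flowers of stage 6 and younger, from 3-week-old ARF3:ARF3-GR arf3-29 plants. ARF3 is an auxin response factor, ARF3-GR is its fusion to the steroid-binding part of the glucocorticoid receptor, which the construct name places under the ARF3 promoter, and arf3-29 is a mutant allele of the gene itself. The fusion protein becomes active when the steroid dexamethasone (DEX) is given. One group of 3 libraries is labelled DMSO, the solvent, and the other group of 3 is labelled DEX. The stated treatment of the DEX group was 10 µM DEX dissolved in DMSO. For both groups, 0.015% Silwet L-77 was listed. All plants grew at 23 °C under 16 h of light and 8 h of dark. Both groups carried the same transgene and the same mutant allele. No group of plants lacking the fusion is part of this comparison, and effects of the steroid itself and of the activated fusion protein cannot be told apart. The treatment time is not given in the sources used here.

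Trehalose 6-phosphate is made by trehalose-phosphate synthases (TPSs) from UDP-glucose and glucose 6-phosphate, and TPPs act on that product. Its level follows that of sucrose in plant tissue, and it inhibits SnRK1, a protein kinase that is active when sugar is short; TPPs thus remove a sugar signal. Trehalase, encoded by TRE1, splits trehalose into glucose. In maize, the TPP RAMOSA3 limits branching of the inflorescence, and in Arabidopsis trehalose 6-phosphate acts at the shoot apex in the timing of flowering. All TPPs of Arabidopsis carry a phosphatase domain of the haloacid dehalogenase type and are active enzymes. TPPA was among the TPP genes of Arabidopsis that were isolated by rescue of a yeast mutant without the enzyme, and TPPD is a chloroplast enzyme whose activity depends on its redox state.

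The libraries held 10703769 to 14469527 reads over the listed genes, so 1 read was worth 0.0691 to 0.0934 reads per 1000000 reads (RPM). The library DEX-3 stood somewhat apart, with Spearman correlations across genes of 0.985 and 0.987 to the other DEX libraries, against 0.991 between DEX-1 and DEX-2. For the tissue label, floral meristems, 5 genes of the floral meristem and young flower were read, and all were detected in every library. Every listed gene reaches 1 RPM in 3 or more libraries, so such detection was largely given. It does not check the stage or purity of the tissue. Some genes chosen as markers of older anthers were also detected in DMSO, as described below. AP1 stood at 265 ± 14.7 RPM in DMSO and at 253 ± 17.5 RPM in DEX (SD, n = 3), while the stem cell genes CLV3 and WUS had means between 2.55 and 4.10 RPM. ARF3 (AT2G33860) had 242, 258 and 243 RPM in DMSO and 144, 149 and 140 RPM in DEX. Transgene and mutant allele can both contribute to this count, so the level does not check the activation of the fusion protein.

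DEX libraries had more RNA of TPPJ, TPPI and TPPD and less RNA of TPPA. All 4 passed an adjusted p of 0.05 (limma, Benjamini-Hochberg over all genes), 3 higher and 1 lower. TPPJ rose most, 2.73-fold, TPPD and TPPI rose by less, and TPPA fell to 0.642 of its DMSO mean. Of all 17675 genes, 57.7% passed the same threshold, 29.6% higher and 28.1% lower in DEX, so that passing it is common in this comparison and the count of 4 says nothing particular about TPP genes. In each of the 4 the DEX values lay entirely on 1 side of the DMSO values, as they did for 62.9% of all genes. Each of the 4 had more than 2.5 RPM in every library, so that none was in the table because of 1 group alone.

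**Figure D1:**
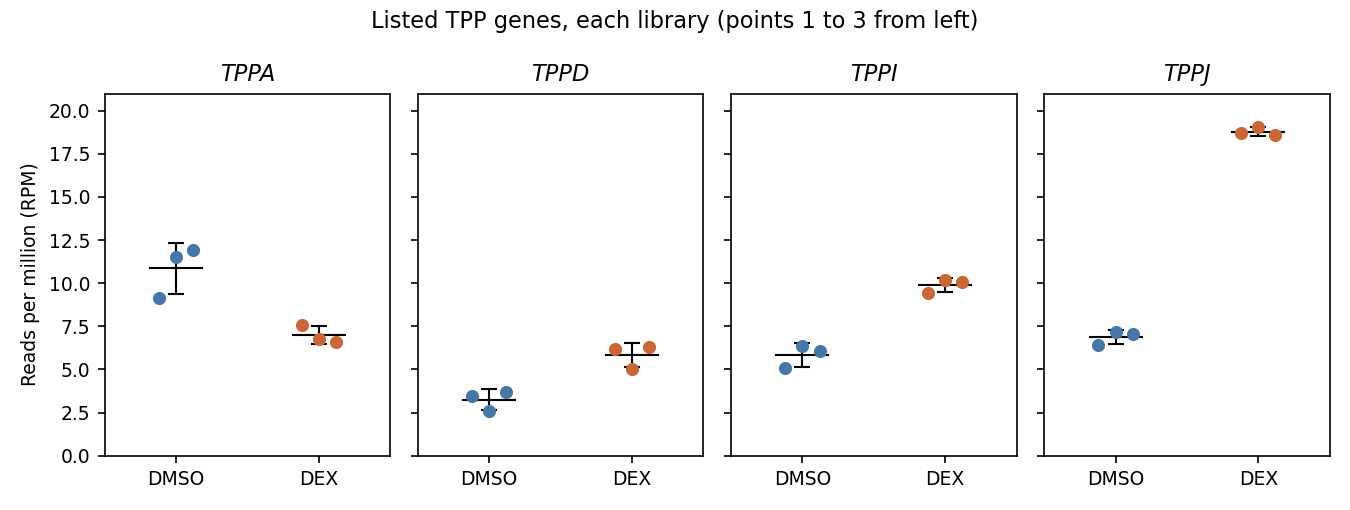
RPM (y axis) of the 4 listed TPP genes in each DMSO and DEX library (points, replicates 1 to 3 from left to right), with the mean and SD of each group of 3 (black bars). The DEX points of TPPJ, TPPI and TPPD lie above all their DMSO points, and those of TPPA lie below.

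TPPJ had 6.43, 7.18 and 7.03 RPM in the 3 DMSO libraries and 18.7, 19.1 and 18.6 RPM in the 3 DEX libraries. The values within each group were close together and the groups were far apart. The means were 6.88 ± 0.397 and 18.8 ± 0.248 RPM (SD, n = 3), a log2 fold change of 1.33 (SE 0.134, 95% interval 1.05 to 1.61, limma adjusted p = 2.00e-07). The log2 fold change is on the log2(RPM + 1) scale, on which the changes of weak genes such as these appear smaller than they are. On the recovered reads, edgeR gave 1.44 for TPPJ. TPPJ rested on 80 to 98 reads per DMSO library and 200 to 276 reads per DEX library.

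TPPI had 5.07, 6.38 and 6.08 RPM in DMSO and 9.44, 10.2 and 10.1 RPM in DEX. Every DEX library was above every DMSO library, and the lowest value of each group was in its replicate 1. The means of 5.84 ± 0.688 and 9.89 ± 0.396 RPM gave a fold of 1.69 and a log2 fold change of 0.68 (SE 0.157, 95% interval 0.34 to 1.01, limma adjusted p = 0.00144).

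TPPD, the weakest of the 4 in reads, had 3.46, 2.56 and 3.71 RPM in DMSO and 6.17, 5.05 and 6.30 RPM in DEX. The groups did not overlap, with 35 to 47 reads per DMSO library and 66 to 90 per DEX library. The means were 3.25 ± 0.603 and 5.84 ± 0.688 RPM, a fold of 1.80 and a log2 fold change of 0.69 (SE 0.190, 95% interval 0.29 to 1.09, limma adjusted p = 0.00481). This value depended on the pseudocount, being 0.39 on the log2(RPM + 5) scale and 0.84 in edgeR.

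TPPA had 9.17, 11.5 and 11.9 RPM in DMSO and 7.57, 6.77 and 6.58 RPM in DEX. The lowest DMSO library, DMSO-1, remained above the highest DEX library, DEX-1. The means of 10.9 ± 1.49 and 6.97 ± 0.524 RPM gave a log2 fold change of -0.57 (SE 0.156, 95% interval -0.90 to -0.24, limma adjusted p = 0.00503). In the annotation, a gene on the opposite strand, AT5G51465, overlaps TPPA by 70 bases. Whether reads were counted by strand is not given in the sources used here, so reads from that stretch cannot be assigned to either gene with certainty. In the TAIR10.1 reference genome, no 50-base window within an exon of TPPA, TPPD or TPPI occurred a second time, and 33 of 1687 windows (1.96%) of TPPJ did.

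Counting error alone gives an expected SD of 0.730 RPM for TPPJ in DMSO and of 1.21 RPM in DEX, and the SDs between replicates, 0.397 and 0.248 RPM, were below these. The SD of TPPI in DEX, 0.396 RPM, was also below its counting error of 0.873 RPM, and those of TPPD were close to it (0.603 against 0.503 RPM in DMSO, 0.688 against 0.675 RPM in DEX). The SD of TPPA in DMSO, 1.49 RPM, exceeded its counting error of 0.917 RPM by more than any other. Without DEX-3, the log2 fold changes were 1.34 for TPPJ, 0.66 for TPPI, 0.64 for TPPD and -0.53 for TPPA, and all 4 passed the threshold. RNA was taken from whole pieces of tissue, so more or fewer cells that express a gene and more or less RNA per cell cannot be told apart.

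The log2 fold change of TPPJ was the largest of the 4, and it lay in the upper tail among all genes. A log2 fold change above that of TPPJ was found in 977 genes, so that 94.5% of all genes lay below it. TPPD and TPPI lay above 85.0% and 84.5% of the genes, and 15.9% of the genes lay below TPPA. The median log2 fold change was 0.68 over the 4 TPP genes and 0.004 over all genes. Ranked by the size of the change in either direction, TPPJ exceeded 92.4% of the genes and TPPA 65.3%.

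**Figure D2:**
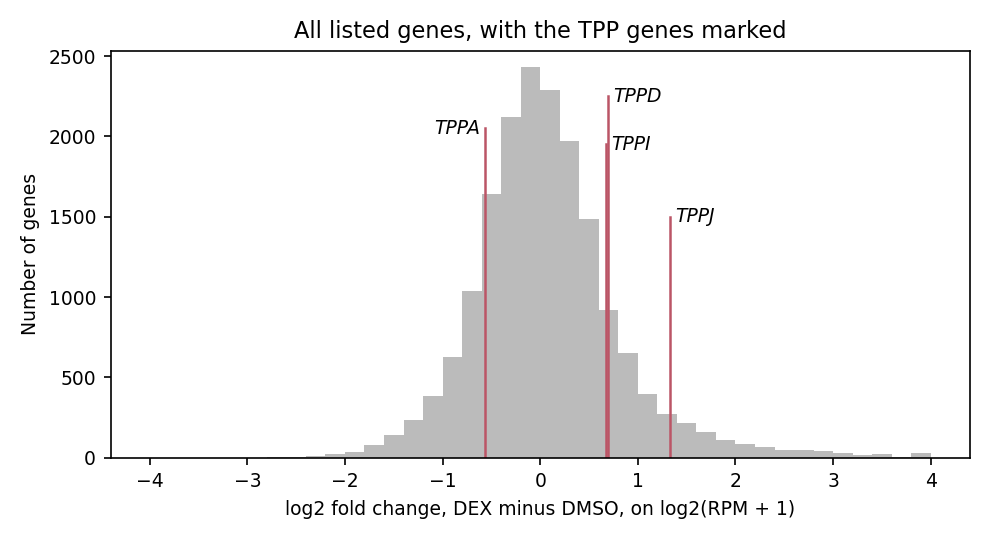
Number of genes (y axis) by log2 fold change between DEX and DMSO on the log2(RPM + 1) scale (x axis, bins of 0.2, with values beyond 4 placed in the end bins), with red lines, whose height has no meaning, at the 4 listed TPP genes. TPPJ at 1.33 lies in the right tail, TPPD at 0.69 and TPPI at 0.68 on the right shoulder, and TPPA at -0.57 on the left shoulder.

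The members were next set against each other within each library, which removes differences in depth. The ratio of TPPJ to TPPA in RPM was 0.589 to 0.702 in the DMSO libraries and 2.47 to 2.83 in the DEX libraries, so TPPJ went from the weaker to the stronger of these 2 in reads. The ratio of TPPI to TPPA went from 0.510 to 0.554 in DMSO up to 1.25 to 1.53 in DEX, and that of TPPD to TPPA from 0.223 to 0.377 up to 0.745 to 0.957. TPPJ also gained on the members that rose with it. Its ratio to TPPI was 1.13 to 1.27 in DMSO and 1.85 to 1.98 in DEX, and its ratio to TPPD was 1.86 to 2.80 and 2.96 to 3.78. The ratio of TPPI to TPPD overlapped between the groups, with 1.47 to 2.49 in DMSO and 1.53 to 2.01 in DEX. Over these 6 pairs of genes, the exact two-sided permutation test gave p = 0.1 for the 5 that did not overlap, the smallest p that 3 against 3 libraries allow (Benjamini-Hochberg adjusted p = 0.12), and p = 0.8 for TPPI and TPPD. No difference between members could therefore pass a threshold of 0.05 by this test. The 6 ratios come from 4 genes and restate their changes. How often ratios of other gene pairs overlap was not computed, so the count of 5 says nothing particular about TPP genes.

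Levels of different genes were compared per kb of exon, with exon lengths of 2549 bases for TPPA, 1555 for TPPD, 1925 for TPPI and 2128 for TPPJ in the TAIR10.1 annotation. In DMSO the order of the levels was TPPA at 4.26 ± 0.584, TPPJ at 3.23 ± 0.186, TPPI at 3.03 ± 0.357 and TPPD at 2.09 ± 0.388 RPM per kb (SD, n = 3). The libraries of TPPJ and TPPI overlapped, at 3.02 to 3.37 and 2.63 to 3.31 RPM per kb, but TPPJ was higher within each DMSO library. In DEX the order was TPPJ at 8.83 ± 0.117, TPPI at 5.14 ± 0.206, TPPD at 3.75 ± 0.443 and TPPA at 2.74 ± 0.206 RPM per kb, with no overlap between neighbours. TPPA was thus highest of the 4 in every DMSO library and lowest in every DEX library per kb of exon. By coding length the last places in DEX changed over, with TPPA at 6.02 and TPPD at 5.26 RPM per kb of coding sequence. TPPA in DMSO and TPPJ in DEX remained highest. TPPJ and TPPI no longer overlapped in DMSO by that length, at 5.78 to 6.45 and 4.43 to 5.58 RPM per kb.

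Summed over the 4 genes, the level was 11.5, 12.85 and 13.5 RPM per kb of exon in DMSO and 20.6, 20.1 and 20.6 RPM per kb in DEX. The 3 DEX libraries were nearly equal and all above DMSO. TPPJ held 25.7 ± 1.09% of the summed level in DMSO and 43.2 ± 1.15% in DEX, and TPPA held 33.7 ± 2.05% and 13.4 ± 0.953%. The shares of TPPI (24.0 ± 1.53% and 25.1 ± 1.23%) and TPPD (16.6 ± 3.39% and 18.3 ± 1.94%) differed by less than their spread. These sums and shares leave out the 6 genes that were not analysed.

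**Figure D3:**
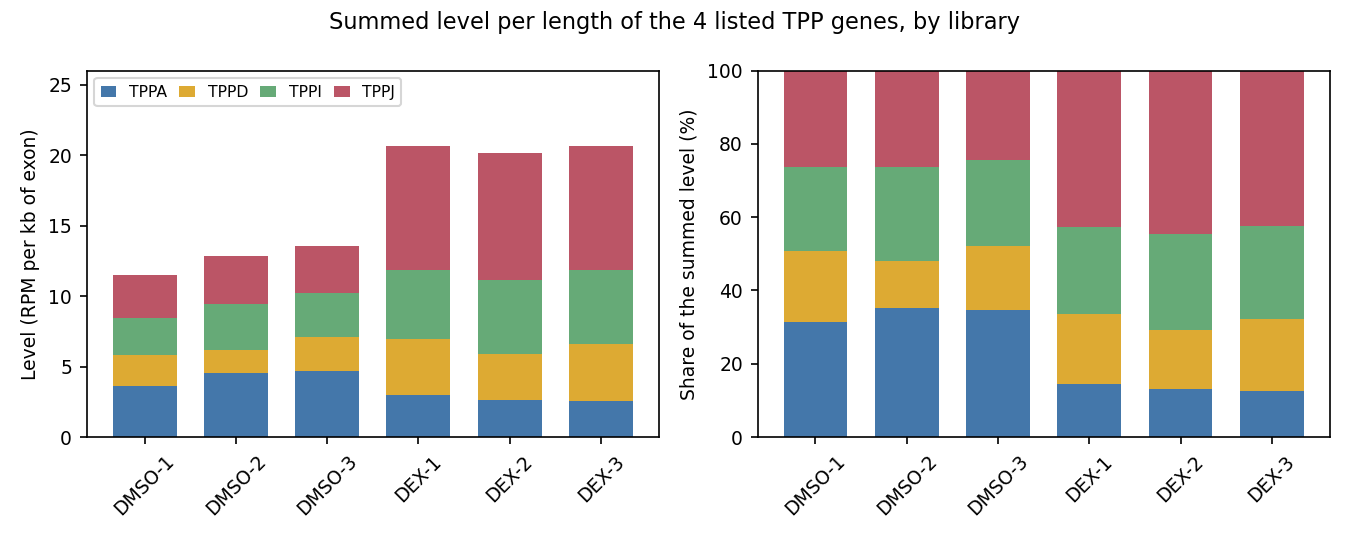
Left, level of the listed TPP genes in RPM per kb of exon (y axis), stacked by gene for each library (x axis); right, the same as a percentage of the summed level. The summed level is 11.5 to 13.5 in DMSO and 20.1 to 20.6 in DEX, and the TPPJ part widens from 25.7% to 43.2% on average while the TPPA part narrows from 33.7% to 13.4%.

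The steps before and after the TPPs were read from a list of the 11 TPS genes and TRE1, of which 9 were in the table. All 9 passed the threshold, 7 higher and 2 lower in DEX, with a median log2 fold change of 1.61, where 57.7% of all genes passed, 29.6% higher and 28.1% lower. TPS1 (AT1G78580), a synthase known to make trehalose 6-phosphate, fell, as TPPA did. It had 21.5, 20.5 and 22.6 RPM in DMSO and 10.9, 9.95 and 6.65 RPM in DEX, a log2 fold change of -1.17 (SE 0.157, limma adjusted p = 6.20e-06), with its lowest value in DEX-3. In the annotation, AT1G09827 on the opposite strand overlaps TPS1 by 429 bases, and AT1G78570 by 99 bases. The TPS genes of class II, which encode proteins with both a synthase-like and a phosphatase-like domain, were in the table with 7 members, of which 6 rose. TPS11 (AT2G18700) rose from 19.5 ± 1.18 to 149 ± 11.9 RPM and TPS8 (AT1G70290) from 32.5 ± 1.30 to 161 ± 5.26 RPM. TPS10, TPS6, TPS9 and TPS7 rose with log2 fold changes of 1.64, 1.61, 1.29 and 0.43, while TPS5 (AT4G17770) fell from 26.2 ± 3.00 to 13.2 ± 0.559 RPM. Genes on the other strand overlap TPS6 by 207 bases (AT1G68030) and TPS5 by 128 bases (AT4G17780). TPS2, TPS3 and TPS4 were not analysed here.

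TRE1 (AT4G24040) changed more than any TPP or TPS gene in the table. It had 12.5, 10.99 and 13.1 RPM in DMSO and 131, 143 and 143 RPM in DEX, an 11.4-fold rise (log2 fold change 3.41, SE 0.0928, limma adjusted p = 5.92e-15). Its RPM were 0.398 to 0.517 times the summed RPM of the 4 TPP genes in DMSO and 3.13 to 3.49 times in DEX. Set against TPS1, both per kb of exon, the summed level of the 4 TPP genes was 2.85, 3.34 and 3.20 times as high in DMSO. In DEX it was 10.1, 10.8 and 16.6 times as high. The widest of these ratios, in DEX-3, came from the low TPS1 value there, since the summed TPP level was 20.6 RPM per kb in both DEX-3 and DEX-1.

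**Figure D4:**
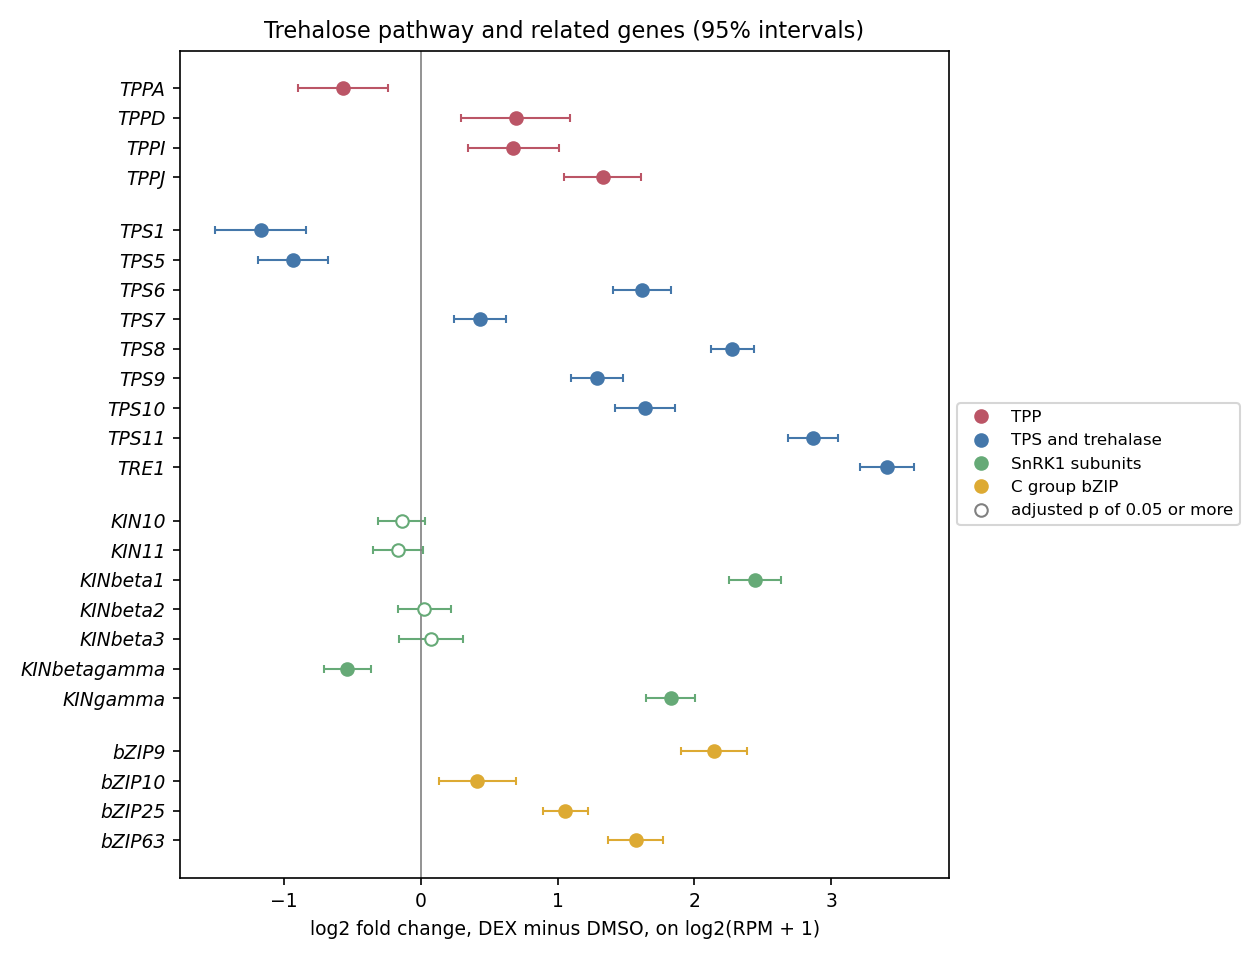
Log2 fold change between DEX and DMSO on the log2(RPM + 1) scale (x axis, limma) with 95% intervals for the listed genes of TPPs, of TPSs and trehalase, of SnRK1 subunits and of C group bZIP factors (y axis); open symbols did not pass an adjusted p of 0.05. Of the filled symbols, TPPA, TPS1, TPS5 and KINbetagamma lie to the left of 0, and TRE1 at 3.41 lies farthest to the right.

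SnRK1, the kinase that trehalose 6-phosphate inhibits, was represented by 7 subunit genes, of which 2 rose, 1 fell and 4 did not pass (median log2 fold change 0.03), against 57.7% of all genes past the threshold. The catalytic subunits KIN10 and KIN11 had log2 differences of -0.14 (95% interval -0.31 to 0.03) and -0.17 (interval -0.35 to 0.01). KINbeta1 (AT5G21170) rose from 46.1 ± 3.50 to 256 ± 32.5 RPM and KINgamma (AT3G48530) from 41.4 ± 1.80 to 150 ± 16.4 RPM, while KINbetagamma (AT1G09020) fell from 72.7 ± 1.63 to 49.9 ± 3.68 RPM. Of 9 bZIP factors of groups C and S1, which act in gene responses to low sugar, the 4 in the table were all of group C and all rose (median log2 fold change 1.31), where 29.6% of all genes were called higher. bZIP9 (AT5G24800) rose from 18.3 ± 2.69 to 83.8 ± 8.89 RPM and bZIP63 (AT5G28770), a target of SnRK1, from 18.7 ± 1.05 to 57.4 ± 3.50 RPM. bZIP25 (AT3G54620) rose by 1.06 on the log2 scale and bZIP10 (AT4G02640) by 0.41 (limma adjusted p = 0.0141). The bZIP10 adjusted p was 0.0654 without DMSO-3, 0.0773 without DEX-1 and 0.0567 without DEX-2. The 5 S1 factors of the list were not analysed here.

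TPPJ had the smallest p of the 4, and genes with a similar pattern were sought among 14195 genes with a mean of at least 5 RPM. The measure was the Euclidean distance between the 6 values of log2(RPM + 1) after subtraction of each gene's DMSO mean. The nearest were ATG8B (AT4G04620), a ubiquitin-like protein of autophagy, at a distance of 0.0988, YLS2 (AT3G51430) at 0.111 and EXL2 (AT5G64260) at 0.112. ATG8B had 57.3, 59.5 and 58.4 RPM in DMSO and 148, 143 and 148 RPM in DEX. TPPI and TPPD lay at 1.14 and 1.19 from TPPJ, with 1637 and 1759 genes nearer to it than they were, and TPPA lay at 3.29. By this measure, many other genes were closer to TPPJ than the other members of its family were. The measure largely restates the size of the log2 fold change given above. TPPD, with a mean below 5 RPM, was not among the 14195 genes.

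Of 11 cell type markers, 7 passed the threshold, 5 higher and 2 lower in DEX, where 57.7% of all genes passed. The count therefore says nothing particular about these markers. Of 4 genes chosen as markers of the tapetum and pollen wall of older anthers, all 4 rose. MS2 and LAP5 reached 1 RPM in 3 libraries only through their DEX values, which had to be high for these genes to be listed, so the count of 4 supports nothing. The summed level of the 4 was 17.4 to 21.6 RPM in DMSO and 31.9 to 37.1 RPM in DEX. This sum includes MS2 and LAP5, so the same limit holds for it. MS2 had 0 reads in every DMSO library, which allows up to 0.220 to 0.241 RPM, and 4.20, 2.49 and 2.45 RPM in DEX. A9 rose from 4.07 ± 0.403 to 9.36 ± 1.17 RPM and LAP5 from 1.01 ± 0.677 to 3.08 ± 0.459 RPM, LAP5 by 1.07 on the log2(RPM + 1) scale and by 1.71 with a pseudocount of 0.1. LAP6 (log2 fold change 0.39, limma adjusted p = 0.0298) lost its call when DMSO-1, DMSO-3 or DEX-3 was left out (adjusted p = 0.0601, 0.161 and 0.0971) and when limma was run with no intensity trend (0.0629). LAP6 was the most abundant of the 4 in DMSO, at 14.0 ± 2.45 RPM, and had 18.6 ± 2.72 RPM in DEX. A9 and LAP6 were thus detected in the DMSO tissue as well. The phloem gene SUC2 rose, with a log2 fold change of 0.26 (limma adjusted p = 0.0152, or 0.0751 without DMSO-3), and the xylem gene IRX3 fell by 0.56 on the same scale (limma adjusted p = 0.0151, or 0.0746 without DMSO-2).

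The 5 genes of the floral meristem and young flower had a summed level of 475 to 514 RPM in DMSO and 403 to 470 RPM in DEX. STM was the 1 that passed, at -0.39 (limma adjusted p = 0.00285), or -0.24 without DEX-3. Of all genes, 57.7% passed, with 28.1% lower in DEX. LFY had a difference of -0.17 (adjusted p = 0.0523), which passed without DEX-3 (adjusted p = 0.0220), and WUS one of -0.50 (adjusted p = 0.116), which passed without DEX-1 (-0.83, adjusted p = 0.00840). The part of any of these cell types in the TPP differences was not tested.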

How the data were processed

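RNA-seq of 6 libraries, 3 DMSO and 3 DEX, was used, with groups and replicate numbers from the labels. Per the submitters' processing notes, TopHat and HTSeq made the counts; their versions, the genome build and the handling of strand are not stated. The deposited values are RPM, scaled by the authors to a total of 1000000 over 17675 listed genes, and every listed gene reaches 1 RPM in 3 or more of the libraries. Values were whole multiples of 1 read in every library (100% within 0.01 reads), so reads were recovered. The limit at 0 reads (3 reads) covers counting error only, while the 95% intervals are from limma and rest on the spread among libraries.

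RPM were tested as log2(RPM + 1) with limma 3.58.1 under R 4.3.3 (intensity trend, two-sided tests) over all genes, with a threshold of 0.05. edgeR 4.0.16 and DESeq2 1.42.0 were run on recovered reads, where edgeR called 10146 genes and DESeq2 9691, against 10204 in limma. The procedure was tested on simulated data. Names, exon lengths and overlaps came from RefSeq TAIR10.1, which matched 17646 identifiers; no coordinates or sequences are printed, as the build of the table is not stated. Members and gene lists were chosen with earlier results of these data known.

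Named are the listed TPP and trehalose pathway genes, up to 4 called SnRK1 and bZIP genes by size, 3 genes nearest to the TPP gene of smallest p, ARF3 and the cell markers; other SnRK1 subunits were added after their values were seen. The comparison of ratios between members was also added then. The 3 libraries of a group differed by more than counting error, with chi-square values per degree of freedom of 2.80 to 12.0. Nothing says that they came from separate plants, so p-values cover the spread among these libraries only, and that may be technical. Alternatives were other pseudocounts (0.1 and 5), minimums, scalings and limma settings, edgeR, DESeq2, a replicate block, coding length and leaving out each library.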

Additional observations from a re-analysis of the deposited data

How the results depend on the processing

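TPPA, TPPD, TPPI and TPPJ kept their direction and passed the threshold under all 17 alternatives. Of these, the fit with no minimum repeats the main fit, since every listed gene already reaches 1 RPM in 3 libraries. Coding length, which bears on levels only, is not among the 17. With 1 library left out, log2 fold changes were 1.29 to 1.36 for TPPJ, 0.59 to 0.73 for TPPI, 0.57 to 0.78 for TPPD and -0.68 to -0.50 for TPPA, with adjusted p up to 0.0293 for TPPA and 0.0284 for TPPD. All TPS genes and TRE1 in the table also passed throughout. Replicate numbers did not pair the libraries: deviations of same-numbered libraries correlated at -0.0471, 0.0622 and 0.0291. With the replicate block, 10255 genes passed, 4 TPP genes among them (TPPJ adjusted p = 2.49e-07, TPPA adjusted p = 0.00684). CLV3, which did not pass, changed sign to 0.023 with edgeR and 0.019 with DESeq2, and ranged from -0.29 to 0.20 with 1 library left out (0.14 without DMSO-1, 0.018 without DEX-1, 0.20 without DEX-2). KINbeta2, which did not pass either, ranged from -0.036 (without DEX-2) to 0.060, with -0.023 without DMSO-3. LFY passed with adjusted p of 0.0475 at a minimum of 5 RPM, 0.0455 and 0.0452 with median-of-ratios and TMM scaling, and 0.0487 in edgeR. With a pseudocount of 5, the log2 fold changes of A9, LAP5 and IRX3 were 0.66, 0.43 and -0.32. A minimum of 5 RPM in 3 libraries retained TPPD through its DEX values alone. Depth limits TPPD most, at 35 to 90 reads per library.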
